A study of Mus musculus with 12 samples.

Results

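The cytochrome P450 genes of families 1 to 3 were followed in whole mouse liver and in its sinusoidal endothelial cells, on chow and on a diet that induces nonalcoholic steatohepatitis (NASH). Members were chosen by name alone, as every gene symbol that starts with Cyp, then 1, 2 or 3, a subfamily letter and a number, and Cyp2c70 was left out. There were 52 such genes among 17188 in the 2 tables of normalized reads. The liver table held 51 of them among 16703 genes, and the endothelial table held 39 among 16273. Of the 52, 38 were in both tables, 13 in the liver table only, and 1, Cyp2j13, in the endothelial table only.

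Cytochrome P450 enzymes of these families sit in the endoplasmic reticulum, where they oxidise drugs, toxins, steroids and fatty acids with electrons passed on by the reductase Por. Their hepatocyte expression is set by liver transcription factors such as Hnf4a, by the xenobiotic receptors Ahr, Nr1i3 (CAR) and Nr1i2 (PXR), and, for some members, by the sex-dependent pattern of growth hormone. Many are made mainly by hepatocytes around the central vein, although Cyp1b1 is known for expression in vessel walls and stroma, and Cyp2f2 in liver for the opposite, periportal side of the lobule.

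All mice were of the C57BL/6 strain. Whole livers of chow-fed mice and of mice on the NASH diet gave 3 libraries each. Liver sinusoidal endothelial cells (LSEC) of chow-fed and of NASH mice gave 3 libraries each as well, and were purified from non-parenchymal liver cells by removing cells that carry CD11b, a myeloid marker, and collecting cells with CD146, an endothelial marker, on magnetic beads. The labels give 36 weeks of NASH diet in a treatment text that stands on every sample, chow included. Nothing in the labels says that libraries of a group come from separate animals. The p-values therefore measure only how these libraries vary, and that variation may be technical. The liver libraries held 47000197 to 57397720 recovered reads, the LSEC libraries 18527017 to 19402863. The 18 hepatocyte markers took 12.3% to 16.8% of liver reads and 0.0531% to 0.688% of LSEC reads. All 10 sinusoidal endothelial markers were read in LSEC, with summed levels of 343302 to 602808 normalized reads against 24337 to 37714 in the separately normalized liver table.

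In NASH liver, most members were lower. Of 51, 28 fell, 8 rose and 15 were not called (limma on log2 of the normalized reads plus 1, Benjamini-Hochberg adjusted p under 0.05 over all genes). Over all 16703 genes, 21.0% fell, 25.0% rose, and 46.0% were called in either direction. The median log2 fold change was -0.69 over the members and 0.02 over all genes. With Cyp2b13, which had no read on chow, set at a floor of 3 chow reads, the median was again -0.69. The 3 NASH libraries lay below all 3 chow libraries for 30 members (27.3% of all genes) and above them for 8 (29.8%). The falls included the members with the highest levels, Cyp2e1, Cyp3a11 and Cyp2d9, whereas the risers were scarce on chow, with at most 204 normalized reads (Cyp2a22). Fewer hepatocytes and less of an RNA per hepatocyte cannot be told apart in these whole livers.

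**Figure D1:**
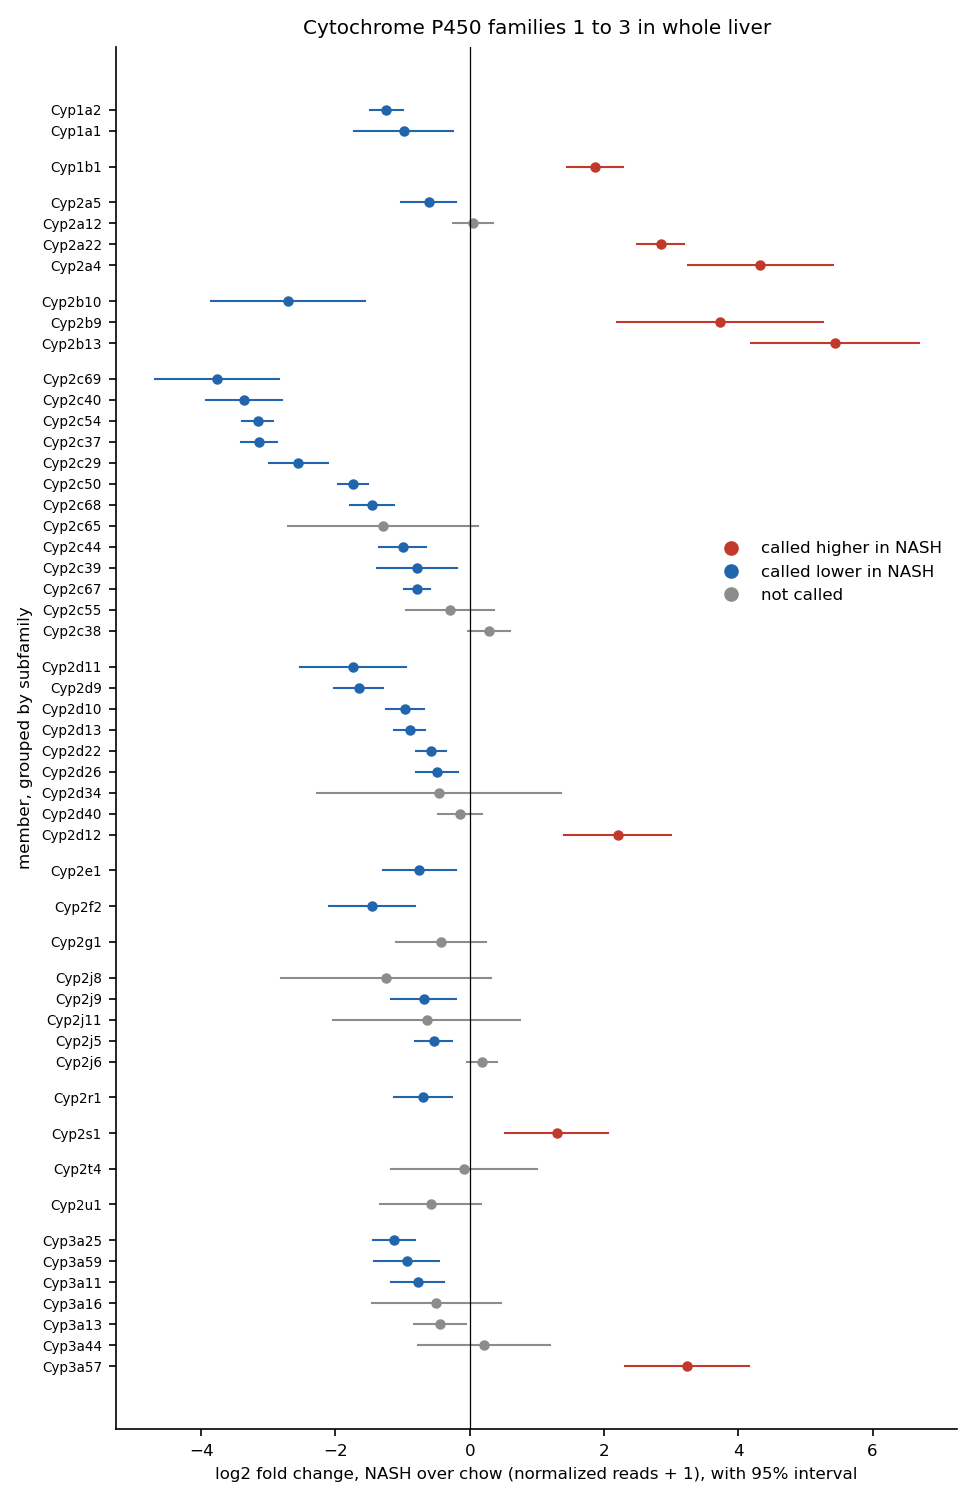
Log2 fold change of NASH over chow in whole liver (x axis) for each of the 51 members (y axis, by subfamily), with 95% intervals from limma, on the authors' scale. Points in blue were called lower (28), in red higher (8) and in grey not called (15), and the Cyp2c subfamily holds no red point, whereas 13 were lower and 15 higher with scaling by hepatocyte marker reads.

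The size of this fall depends on what the libraries are scaled to. Members took 2.69% ± 0.10 of all reads with chow, against 1.93% ± 0.15 with NASH (SD, n = 3), and the groups did not overlap (exact permutation test, two-sided, p = 0.1, the smallest that 3 against 3 can give). The hepatocyte markers moved too, with 10 of 18 lower and summed levels of 9534060 to 10412300 normalized reads on chow and 5274740 to 6109310 in NASH. Alb weighs most in this sum, at 4129700 ± 249178 on chow and 2025880 ± 69993 in NASH. It was among the 8 markers not called (-1.03, limma, adjusted p = 0.0993), as were Trf (-0.07) and Hpx (0.03). The part of Alb in the scaling to these markers was not tested. None of the 18 was at 0 in every library. Per 100 hepatocyte marker reads there were 16.4 ± 0.70 member reads on chow and 15.3 ± 0.70 in NASH (exact permutation test, p = 0.2). When libraries were scaled to their total reads, 17 members were lower and 11 higher (5.41% and 47.2% of all genes, 52.6% in all), with a median of -0.29 against 0.43 over all genes. When they were scaled to hepatocyte marker reads, 13 were lower and 15 higher (2.31% and 73.8% of all genes, 76.1% in all), and the median turned to 0.03 against 0.78 over all genes. Under every one of the pseudocounts, scalings, tools, the replicate block and the single libraries left out, 7 of the 8 rises (all but Cyp2s1) and 13 of the 28 falls were called. Those 13 were Cyp1a2, Cyp2b10, Cyp2c29, Cyp2c37, Cyp2c40, Cyp2c50, Cyp2c54, Cyp2c68, Cyp2c69, Cyp2d9, Cyp2d11, Cyp2f2 and Cyp3a25. The part of the lower hepatocyte marker level in the other falls was not tested.

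**Figure D2:**
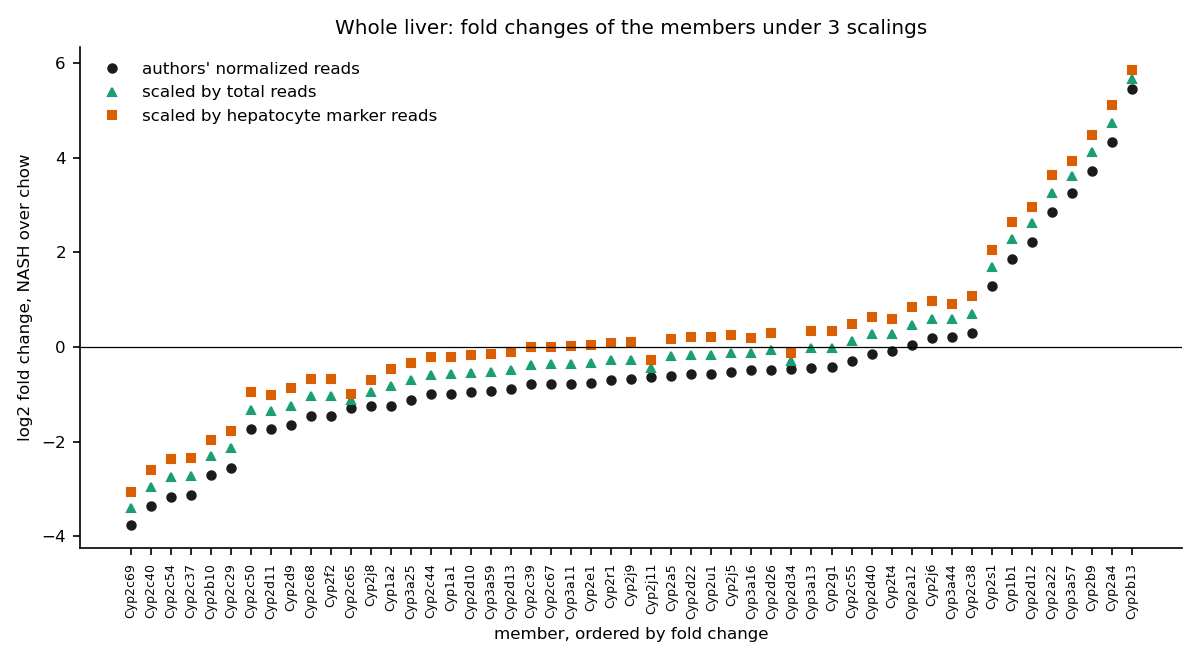
Log2 fold change of NASH over chow (y axis) for the 51 liver members (x axis, ordered by the fold change on the authors' scale), with circles for the authors' normalized reads, triangles for scaling by total reads and squares for scaling by hepatocyte marker reads. Members at both ends keep their sign, while the middle of the order moves from below 0 to near or above it, as the median moves from -0.69 to 0.03.

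In family 1, whose genes are targets of the aryl hydrocarbon receptor Ahr, both Cyp1a genes fell and Cyp1b1 rose, although Cyp1a1 was not called under either scaling. Cyp1a2, which oxidises caffeine and aromatic amines, measured 17096, 17133 and 20531 normalized reads across chow livers, against 8427, 7773 and 6914 with NASH. All NASH libraries lay under all chow libraries, with a log2 fold change of -1.24 ± 0.11 (SE, limma, adjusted p = 3.15e-05). Cyp1a1, the most inducible target of the receptor, was scarce, at 53.5 ± 10.5 normalized reads with chow against 27.3 ± 9.12 with NASH (SD, n = 3). Its change of -0.99 passed (adjusted p = 0.0326) but was lost without any 1 of chow libraries 1, 2 and 3 or NASH libraries 1 and 2 (adjusted p = 0.057 to 0.0958). Cyp1b1, which hydroxylates oestradiol and polycyclic hydrocarbons, had 145, 134 and 109 normalized reads on chow, against 470, 388 and 569 in NASH. The groups were far apart, with a rise of 1.87 ± 0.18 (SE, limma, adjusted p = 5.76e-05). Markers of stellate cells and myofibroblasts, another place of Cyp1b1 expression, rose for 6 of 8 genes in the same livers, from summed levels of 22777 to 26595 to 59629 to 84113 normalized reads. No marker of that list was at 0 in every library, and its part in the Cyp1b1 rise was not tested. Macrophage markers (8 of 10 higher, 1 lower) and T and NK cell markers (4 of 5 measured higher) rose in these livers too.

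The 4 Cyp2a genes, which lie on chromosome 7 between 26307169 and 27037375 (GENCODE M21, mm10), did not move together. Cyp2a5, the coumarin hydroxylase and by far the larger of the near-identical pair Cyp2a4 and Cyp2a5, had 45720, 52444 and 74467 normalized reads on chow, against 42795, 36217 and 32402 in NASH. The groups lay close together, and the fall of -0.61 ± 0.18 (SE, limma, adjusted p = 0.0215) was lost without chow library 3, NASH library 2 or NASH library 3 (0.0558 to 0.0808). Cyp2a4, a testosterone hydroxylase that female livers express more than male ones, had 30.8, 34.5 and 35.9 normalized reads on chow, against 1465, 275 and 835 in NASH. Every NASH library was well above chow, by 4.33 ± 0.48 on the log2 scale (SE, limma, adjusted p = 0.000105), while NASH libraries differed widely among themselves. Cyp2a22 rose from 166, 194 and 252 to 1503, 1346 and 1505 normalized reads (2.84 ± 0.16, limma, adjusted p = 2.44e-06). Cyp2a12, its closest relative, had 29040 ± 1720 and 30355 ± 5138 and was not called. The reading frames of Cyp2a12 and Cyp2a22 are 97.0% identical, so reads may have been split between them. Summed over the subfamily, normalized reads fell by 19.6%, but the sum was 6.53% higher per total reads and 37.4% higher per hepatocyte marker read.

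The 250 bases before the RefSeq transcription starts of Cyp2a4 and Cyp2a5 are printed because their changes differed so much (4.33 and -0.61) while their upstream sequences barely differ. GENCODE M21 starts these genes at 26307169 and 26835305, inside the printed windows. Per total reads Cyp2a5 stood at -0.19 (adjusted p = 0.383) and per hepatocyte marker read at 0.18 (adjusted p = 0.359), so its fall was not called under either scaling. The sequences come from RefSeq (GRCm38.p6), at chr7:26306942-26307191 and chr7:26835089-26835338, both on the plus strand and 5′ to 3′. Capitals mark the bases that differ in an alignment of the 2, which are 4 of 249 aligned bases.
Cyp2a4: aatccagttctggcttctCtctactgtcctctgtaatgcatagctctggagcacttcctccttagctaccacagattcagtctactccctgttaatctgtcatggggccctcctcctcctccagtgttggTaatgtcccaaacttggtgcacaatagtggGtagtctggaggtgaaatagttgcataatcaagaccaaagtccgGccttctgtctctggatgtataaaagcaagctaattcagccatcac
Cyp2a5: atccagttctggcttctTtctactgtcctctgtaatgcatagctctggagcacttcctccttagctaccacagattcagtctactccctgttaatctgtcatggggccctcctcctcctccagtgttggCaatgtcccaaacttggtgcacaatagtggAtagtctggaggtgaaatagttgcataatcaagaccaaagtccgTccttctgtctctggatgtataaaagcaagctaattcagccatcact
Their longest reading frames also differ at 23 of 1485 aligned bases only, an identity of 98.5%. Reads that fit both genes cannot be assigned, and how the counting treated them is not given in the sources used here, so the split between Cyp2a4 and Cyp2a5 is uncertain. Over all members with a reading frame in GENCODE (50 of 52), 13 had a relative in their subfamily at 95% identity or more, all in Cyp2a, Cyp2c and Cyp3a.

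The 3 Cyp2b genes also divided. Cyp2b10, the classic target of CAR and of phenobarbital, had 80.7, 141 and 53.3 normalized reads on chow, against 26.6, 10.1 and 6.43 in NASH. Each NASH library was below each chow library, a fall of -2.71 ± 0.51 (SE, limma, adjusted p = 0.00213). Cyp2b9 and Cyp2b13 are known as female-biased genes of mouse liver and did the reverse. Cyp2b9 had 34.4, 16.2 and 16.4 normalized reads on chow, against 799, 81.4 and 368 in NASH, a rise of 3.72 ± 0.68 (SE, limma, adjusted p = 0.00183). Cyp2b13 had no read in any chow library and 72.5, 18.1 and 57.1 normalized reads in NASH (limma, adjusted p = 6.96e-05). Taking 3 reads for the whole chow group as the floor, its 168 NASH reads make it at least 46.4-fold higher. Cyp2a4, Cyp2b9 and Cyp2b13 shared the order of the NASH libraries, highest in library 1 and lowest in library 2.

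The upstream windows of the Cyp2b genes are shown because 2 of them are nearly the same and rose together, while the third differs and fell. They are at chr7:26173159-26173408 for Cyp2b9, chr7:26061245-26061494 for Cyp2b13 and chr7:25897408-25897657 for Cyp2b10 (RefSeq, GRCm38.p6, plus strand, 5′ to 3′). Capitals in Cyp2b9 and Cyp2b13 mark the 2 of 250 aligned bases at which they differ from each other, and capitals in Cyp2b10 mark the 61 of 240 at which it differs from Cyp2b9.
Cyp2b9: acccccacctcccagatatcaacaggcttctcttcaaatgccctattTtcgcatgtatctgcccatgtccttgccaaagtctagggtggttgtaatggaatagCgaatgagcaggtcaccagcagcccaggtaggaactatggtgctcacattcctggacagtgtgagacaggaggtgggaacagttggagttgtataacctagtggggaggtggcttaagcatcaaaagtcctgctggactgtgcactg
Cyp2b13: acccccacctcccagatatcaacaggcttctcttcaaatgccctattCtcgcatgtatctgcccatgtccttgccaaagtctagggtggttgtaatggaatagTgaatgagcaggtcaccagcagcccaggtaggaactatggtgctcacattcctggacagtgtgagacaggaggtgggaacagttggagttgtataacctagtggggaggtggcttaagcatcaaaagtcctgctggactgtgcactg
Cyp2b10: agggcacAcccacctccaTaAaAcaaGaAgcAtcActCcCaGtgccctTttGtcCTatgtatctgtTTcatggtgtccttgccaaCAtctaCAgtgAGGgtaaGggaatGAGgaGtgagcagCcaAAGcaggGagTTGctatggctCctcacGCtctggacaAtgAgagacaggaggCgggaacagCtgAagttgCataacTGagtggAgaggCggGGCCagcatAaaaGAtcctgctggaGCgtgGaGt
GENCODE M21 starts Cyp2b10 at 25897620, inside its printed window, and Cyp2b9 and Cyp2b13 just after theirs. A RefSeq promoter was found for 44 of the 52 members. The resemblance of these windows is a description, and nothing here measures binding to them.

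**Figure D3:**
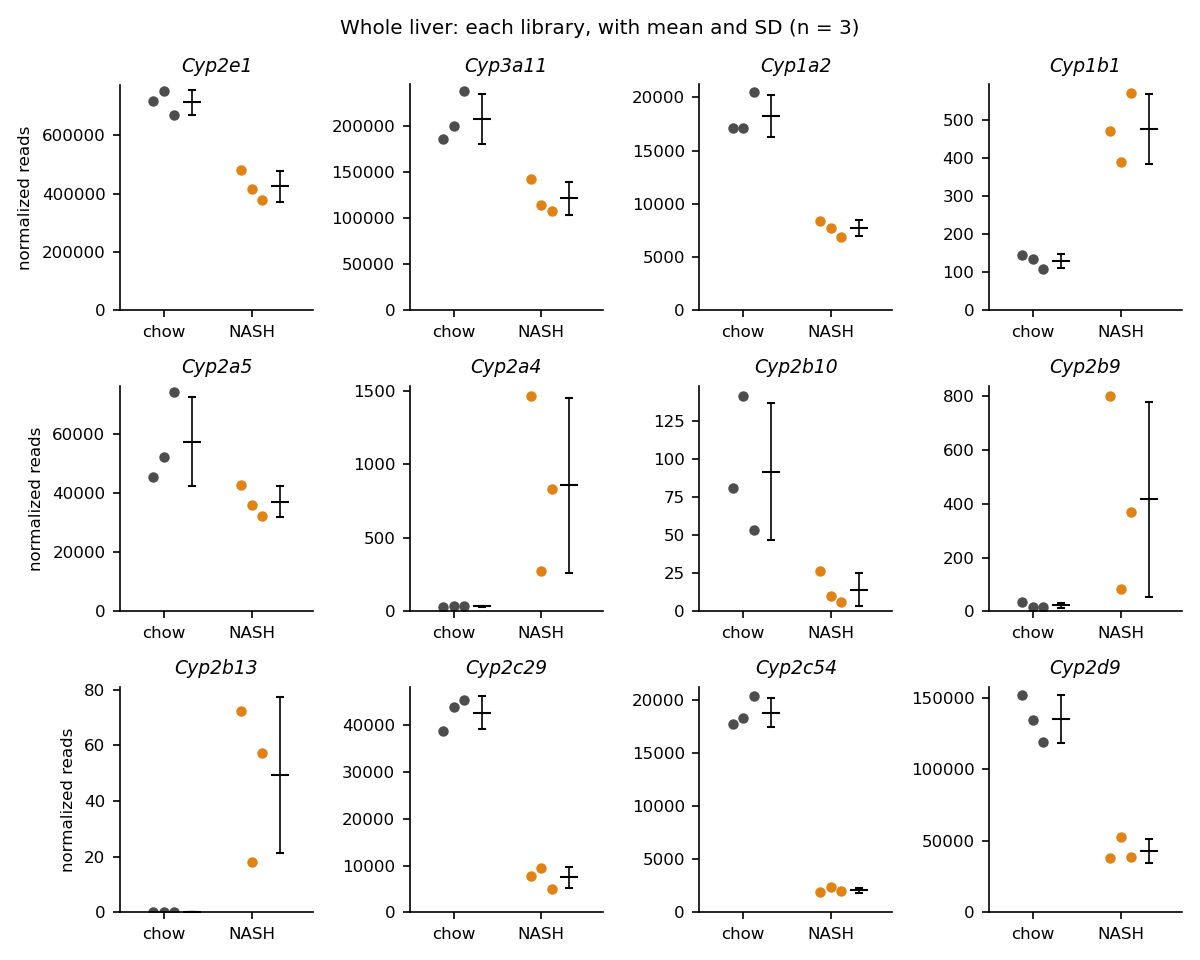
Normalized reads in whole liver (y axes, each from 0) in the 3 chow and 3 NASH libraries for 12 members, with the mean and SD beside the points. Cyp2e1, Cyp3a11, Cyp1a2, Cyp2a5, Cyp2b10, Cyp2c29, Cyp2c54 and Cyp2d9 are lower in NASH (Cyp2e1, Cyp3a11 and Cyp2a5 not when scaled to hepatocyte marker reads), and Cyp1b1, Cyp2a4, Cyp2b9 and Cyp2b13 are higher, the last from 0 reads on chow.

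The Cyp2c subfamily, which metabolises drugs and turns arachidonic acid into epoxides, had the largest relative drop among the subfamily sums. Of its 13 genes on chromosome 19, 10 fell and 3 were not called, and its summed level went from 183622 ± 10350 to 50781 ± 5232 normalized reads, so that it fell by 72.3%. The corresponding changes were -63.2% per total reads and -52.5% per hepatocyte marker read. Cyp2c54 had 17730, 18323 and 20349 on chow and 1925, 2370 and 2028 in NASH, a change of -3.16 ± 0.10 (SE, limma, adjusted p = 1.23e-07). Cyp2c37 went from 34564, 34588 and 39598 to 4845, 3875 and 3698 (-3.14, adjusted p = 2.09e-07). Both are close relatives of Cyp2c50, which fell less, from 38569, 38582 and 42447 to 12026, 13028 and 10837 (-1.74, adjusted p = 3.46e-06). The reading frames of Cyp2c37, Cyp2c50 and Cyp2c54 are 95.1% to 96.1% identical, so reads may have been split between them. Cyp2c29, an inducible target of CAR, went from 38679, 43982 and 45361 to 7801, 9570 and 5092 normalized reads (-2.55, adjusted p = 1.52e-05). Its NASH level was 5.88-fold lower.

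Within Cyp2c, a second group of near relatives, Cyp2c40, Cyp2c67, Cyp2c68 and Cyp2c69, all fell but by unequal amounts, although Cyp2c67 stood at 0.0021 when scaled to hepatocyte marker reads. Cyp2c40, which hydroxylates arachidonic acid and is female-biased in mouse liver, went from 209 ± 47.6 to 19.2 ± 2.54 normalized reads (-3.36). Cyp2c69, named after its value was seen because its mean was under 50, fell by 3.77 on the log2 scale, and Cyp2c68 and Cyp2c67 fell by 1.46 and 0.78. Their reading frames are 96.5% to 98.1% identical, so reads may have been split between them. Cyp2c44, an epoxygenase, went from 17520 ± 1393 to 8902 ± 2062 normalized reads (adjusted p = 0.000705). Cyp2c39 fell by 0.79 (adjusted p = 0.035), a call lost without chow library 1, chow library 2, NASH library 2 or NASH library 3 (0.0716 to 0.138). Cyp2c38 stood at 2767 ± 359 normalized reads on chow against 3396 ± 585 in NASH and was not called (0.29, 95% interval -0.02 to 0.60), but was called higher under both scalings. Cyp2c55 and Cyp2c65 were low in every library and were not called.

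Of the 9 Cyp2d genes, 6 fell, 1 rose and 2 were not called, and their sum fell by 52.8% on the authors' scale, against changes of -37.3% per total reads and -19.0% per hepatocyte marker read. Cyp2d9, a testosterone hydroxylase typical of male mouse liver, had 152172, 134446 and 118882 normalized reads on chow, against 38356, 52746 and 38445 in NASH. The NASH libraries stayed under the lowest chow library by a wide margin (-1.66 ± 0.16, limma, adjusted p = 5.98e-05). Per kb of exon, Cyp2d9 was the second most abundant member on chow, at 50853 normalized reads per kb, and the fifth in NASH, at 16246. Cyp2d10 fell from 52298, 49570 and 45999 to 27663, 27420 and 21442 normalized reads (-0.96). Cyp2d13 fell from 5133, 4953 and 6190 to 2657, 2964 and 3094 (-0.90). Cyp2d22 and Cyp2d26 fell by 0.58 and 0.49 on the authors' scale, but stood at 0.20 and 0.30 when scaled to hepatocyte marker reads, where Cyp2d26 was called higher, and the Cyp2d26 fall was lost without chow library 2 (adjusted p = 0.0762). Cyp2d12 and Cyp2d11, named after their values were seen, are scarce and moved apart. Cyp2d12 rose from 17.5 ± 7.33 to 81.0 ± 18.9 normalized reads (adjusted p = 0.000864), and Cyp2d11 fell from 27.5 ± 3.37 to 7.68 ± 2.23 (adjusted p = 0.0032).

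Cyp2e1, which oxidises ethanol and acetone and releases reactive oxygen, was the most abundant member per length in both diets. It held 43.8% of the normalized reads of all members on chow and 48.2% in NASH. Its levels were 717732, 750721 and 667628 on chow and 481689, 414319 and 376396 in NASH. The groups did not overlap, and the fall of -0.75 ± 0.24 passed narrowly (SE, limma, adjusted p = 0.029). It was lost without chow library 1, 2 or 3 or NASH library 1 (adjusted p = 0.0572 to 0.125), with a pseudocount of 10 (0.0684), with scaling by total reads (-0.34, 0.0652), and with scaling by hepatocyte marker reads (0.03, 0.815). Cyp2f2, a naphthalene-oxidising enzyme of the periportal lobule, fell further, from 56609, 57132 and 66828 to 19980, 37530 and 13986 normalized reads (-1.46 ± 0.29, adjusted p = 0.00272).

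The Cyp3a subfamily, which clears many drugs and steroids, had a summed level that fell by 42.8% on the authors' scale, against changes of -24.0% per total reads and -2.05% per hepatocyte marker read. Cyp3a11, the main drug-metabolising enzyme of mouse liver and a PXR target, had 185766, 200380 and 238615 normalized reads on chow, against 142396, 115007 and 108244 in NASH. The groups were apart (-0.77 ± 0.18, limma, adjusted p = 0.00603), but not called when scaled to total reads (-0.36, 0.0593) or to hepatocyte marker reads (0.01, 0.943). Cyp3a25 went from 38740, 43568 and 52280 to 22293, 21849 and 17499 normalized reads (-1.12, adjusted p = 0.00021), and its near copy Cyp3a59 fell by 0.94. Cyp3a57 was nearly silent on chow, with 5.93, 4.32 and 2.05 normalized reads, and had 58.7, 39.2 and 38.6 in NASH. It rose by 3.24 ± 0.41 (SE, limma, adjusted p = 0.000228). Cyp3a13 (-0.44, adjusted p = 0.0638), Cyp3a16 and Cyp3a44 were not called.

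Members of the remaining subfamilies were mostly of lower level. Cyp2j5, an epoxygenase of liver and kidney, went from 26088, 28243 and 29205 to 19773, 21903 and 16206 normalized reads (-0.54, adjusted p = 0.00573), and was called higher, by 0.25, when scaled to hepatocyte marker reads. Cyp2j6 had 3887, 3755 and 3722 normalized reads on chow, against 4440, 4778 and 3732 in NASH, and was not called. Cyp2j9 had 262, 331 and 397 on chow, against 245, 151 and 222 in NASH (-0.69, adjusted p = 0.0273), a call lost without chow library 2 or 3 or NASH library 2 or 3 (0.0531 to 0.086). Cyp2r1, a vitamin D 25-hydroxylase, went from 483, 574 and 835 to 371, 427 and 342 normalized reads (-0.70, adjusted p = 0.0147, and 0.0583 or 0.0642 without NASH library 1 or 3). Cyp2s1, an epithelial enzyme, rose from 19.0, 20.5 and 32.8 to 83.5, 58.3 and 41.8 (1.30, adjusted p = 0.012), which was lost without NASH library 1 (1.05, 0.0554). Cholangiocyte markers, which mark another epithelium, all rose (6 of 6), from summed levels of 2262 to 2931 to 18116 to 35522 normalized reads, with no marker at 0 in every library. Their part in the Cyp2s1 rise was not tested. Cyp2u1, a fatty acid hydroxylase, had 448, 410.0 and 376 on chow and 155, 501 and 265 in NASH, so that NASH library 2 was the highest of all 6. It was not called, but without that library it was (-1.01, adjusted p = 0.00955). Cyp2g1, Cyp2t4, Cyp2j8, Cyp2j11 and Cyp2d34 had at most 63.6 normalized reads in any library and were not called.

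Other genes of the pathway were read from the same fit. Among 6 electron donors and P450 partners, the reductase Por fell from 60033 ± 8785 to 28210 ± 7768 normalized reads (-1.11, limma, adjusted p = 0.0012), Cyb5r3 rose by 0.31, and 4 were not called. Among genes of heme synthesis and breakdown, Cpox and Fech fell by 0.70 and 0.34 and Blvra rose by 0.60, and neither fall was called under scaling by total reads. Of 21 regulators of P450 genes, 11 fell and 10 were not called (21.0% of all genes fell), with Foxa3 at -1.41, Nr1i3 at -1.18, Hnf4a at -1.06 and Ahr at -0.98. Under scaling by total reads, 6 regulators were lower and 6 higher, where 5.41% of all genes were lower and 47.2% higher. Of 18 CAR and PXR targets outside the P450 families, 7 fell, among them the transporter Slco1a4 (-2.07) and the carboxylesterase Ces2a (-1.84), and 5 rose, among them Abcb1a (2.45) and Gstm3 (2.33), and under scaling by total reads 5 were lower and 9 higher. Of 6 Ahr targets outside the families, Nqo1 and Tiparp rose by 0.51 and 0.67 and 4 were not called, whereas 5 of the 6 were called higher under scaling by total reads.

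Lists that describe where or in which sex a gene is expressed were read against the 46.0% of all genes called in either direction (21.0% lower and 25.0% higher). Under scaling by total reads, 52.6% of all genes were called (5.41% lower and 47.2% higher). Of 17 male-biased liver genes, 14 fell and 3 were not called, with Mup7 at -6.42, and 13 fell and 1 rose under scaling by total reads. Of 17 measured female-biased genes outside the members, 8 fell, among them Cyp4a14 (-4.78), and 4 rose, among them Slc22a27 (3.11). Among members known as female-biased, picked here after their values were seen, Cyp2a4, Cyp2b9 and Cyp2b13 were higher, Cyp2c40 and Cyp2c69 lower, and Cyp3a16 and Cyp3a44 not called (adjusted p = 0.372 and 0.726). In both diets the liver libraries carried the Y-linked Ddx3y (4742 ± 365 and 2931 ± 376 normalized reads) and almost no Xist (3.31 ± 1.96 and 1.82 ± 0.20). Of 18 periportal genes, 13 fell and 1 rose, and of 19 pericentral genes outside P450 families 1 to 3, 9 fell and 2 rose. Under scaling by total reads these were 11 lower and 3 higher for periportal genes and 7 lower and 7 higher for pericentral genes. The 9 pericentral falls include Cyp7a1, a P450 of another family, and Ahr and Nr1i3, which are also counted among the regulators. Both the periportal Cyp2f2 and the pericentral Cyp2e1 and Cyp1a2 were among the members that fell.

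In LSEC, the share of members called was near that over all genes. Of 39, 2 rose, 2 fell and 35 were not called (limma, adjusted p under 0.05), where 5.24% of all genes rose, 2.86% fell and 8.11% were called either way. That a member was not called does not show that it was unchanged. With scaling by total reads the members' counts were again 2 and 2, against 7.15% higher and 1.68% lower of all genes (8.83% in all). All 3 NASH libraries lay above all chow libraries for 5 members and below them for 4 (16.5% and 15.4% of all genes). The median log2 fold change was 1.05 over the members and 0.00 over all genes. It stayed at 1.05 with Cyp2a22 and Cyp2j13, which had no chow read, set at a floor of 3 chow reads. Hepatocyte RNA was present in these libraries in unequal amounts. Hepatocyte markers took 0.108%, 0.582% and 0.0531% of chow reads, library by library, against 0.329%, 0.428% and 0.688% with NASH. None of the 18 markers was at 0 in every library, and none was called. Without the second chow library, which stood apart from the other chow libraries in hepatocyte reads, 10 members were called higher and the median was 2.07. Without chow library 3 the median was 0.18 with 1 higher and 1 lower, and without NASH library 3 it was 0.62 with 1 lower and 0 higher (limma, 4 higher at an unadjusted p under 0.05). Without chow library 3 or NASH library 1 or 3, 1 member was lower, and without NASH library 2, 1 was higher. Of all 16273 genes, 1055 were called either way without chow library 2 and 255 without chow library 3. Without NASH library 1, 2 or 3 these were 474, 241 and 124. With the hepatocyte marker level as a covariate, the median turned to -0.16, 1 member was higher (Cyp2a4) and 4 were lower (Cyp2d22, Cyp2c37, Cyp2c50 and Cyp2c54). The fit with the covariate called 484 of all 16273 genes in either direction.

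Cyp2d22 was the most abundant member of chow LSEC per length, at 1086 normalized reads per kb of exon. The chow libraries read 4402, 3735 and 4597, and the NASH libraries 2111, 1938 and 1811 normalized reads. The groups were well apart, with a 2.17-fold lower level in NASH (-1.12 ± 0.13, limma, adjusted p = 0.00704). The call was kept without any 1 library and with the covariate (-0.97, adjusted p = 0.0243). Scaled to hepatocyte marker reads it was -2.60 and not called (adjusted p = 0.458). Under that scaling limma called 0 of the 39 members, with 3 higher and 3 lower at an unadjusted p under 0.05, and 0.0553% of all genes (0.0123% higher and 0.0430% lower). Sinusoidal endothelial markers moved in the same direction as Cyp2d22, with 4 of 10 lower and 1 higher and summed levels of 576281 to 602808 normalized reads on chow and 343302 to 372235 in NASH. No marker was at 0 in every library, and their part in the Cyp2d22 and Cyp1a1 falls was not tested.

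Cyp1a1 had 400.1, 149 and 274 normalized reads in chow LSEC and 18.4, 59.7 and 28.8 in NASH. Each NASH library was below each chow library, a 7.79-fold lower level (-2.96 ± 0.51, limma, adjusted p = 0.0216). The call was lost without chow library 3 or NASH library 1 or 3 (adjusted p = 0.0604 to 0.0901) and with the covariate (-2.58, 0.0716). Nqo1, another Ahr target, fell in LSEC too (-1.48, adjusted p = 0.027), and 5 of that list of 6 were not called. Cyp1b1 had 431, 578 and 258 on chow and 509, 871 and 551 in NASH, groups that overlapped (0.64 ± 0.33, adjusted p = 0.269). Stellate cell and myofibroblast markers were read in LSEC as well, with 3 of 8 higher and summed levels of 14449 to 33610 on chow and 40947 to 77339 in NASH. Macrophage markers were higher in LSEC for 7 of 10, and 3 were not called.

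The rises in LSEC rested on few reads. Cyp2a4 had 0, 1.09 and 0 normalized reads on chow, against 21.3, 16.8 and 43.7 in NASH, which is 1 read against 87 (ratio 78.0, 95% counting interval 13.6 to 3115, limma adjusted p = 0.0102). Cyp2a22 had no chow read and 50 NASH reads, which is 14.9-fold higher with the same floor of 3 reads (95% counting interval from 11.7, limma adjusted p = 0.0201). Both genes also rose in whole liver. Per 100000 hepatocyte marker reads, Cyp2a4 had 0 to 35.7 over all LSEC libraries and 0.315 to 24.0 over all liver libraries. Cyp2a22 had 0 to 25.5 in LSEC and 1.69 to 28.5 in liver. Scaled to hepatocyte marker reads, neither LSEC rise was called (limma, 4.22, adjusted p = 0.193 for Cyp2a4, and 3.50, 0.458 for Cyp2a22). With the covariate, Cyp2a4 was called (3.77, 0.0289). The part of hepatocyte RNA in these rises was not tested otherwise. The Cyp2a4 call was lost without NASH library 3 (0.054), and the Cyp2a22 call without chow library 3 or NASH library 2 or 3 (0.0539 to 0.069), with edgeR (0.0574) and with the covariate (0.0728). Intervals from reads cover counting error only.

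Of the other members with the highest means in LSEC, Cyp2e1 and Cyp3a11 were high in the libraries with most hepatocyte marker reads, and Cyp2j6 was not. Cyp2e1 had 329, 2909 and 187 normalized reads on chow, against 859, 2089 and 4572 in NASH, the same order over the 6 libraries as the hepatocyte marker share. Its change of 1.84 was not called (adjusted p = 0.311), but was without the second chow library (3.02, 0.0459), and was -0.0045 with the covariate. Cyp3a11 had 415, 3768 and 98.3 on chow and 474, 733 and 2425 in NASH (0.82, adjusted p = 0.726). Cyp1a2 had 33.4, 302 and 11.3 on chow and 36.7, 86.8 and 159.9 in NASH (0.69, adjusted p = 0.746). All 3 were highest or second in the chow library with the most hepatocyte reads. Cyp2j6 had 992, 1165 and 1175 on chow and 837, 1239 and 1014 in NASH (-0.12, 95% interval -0.52 to 0.27).

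**Figure D4:**
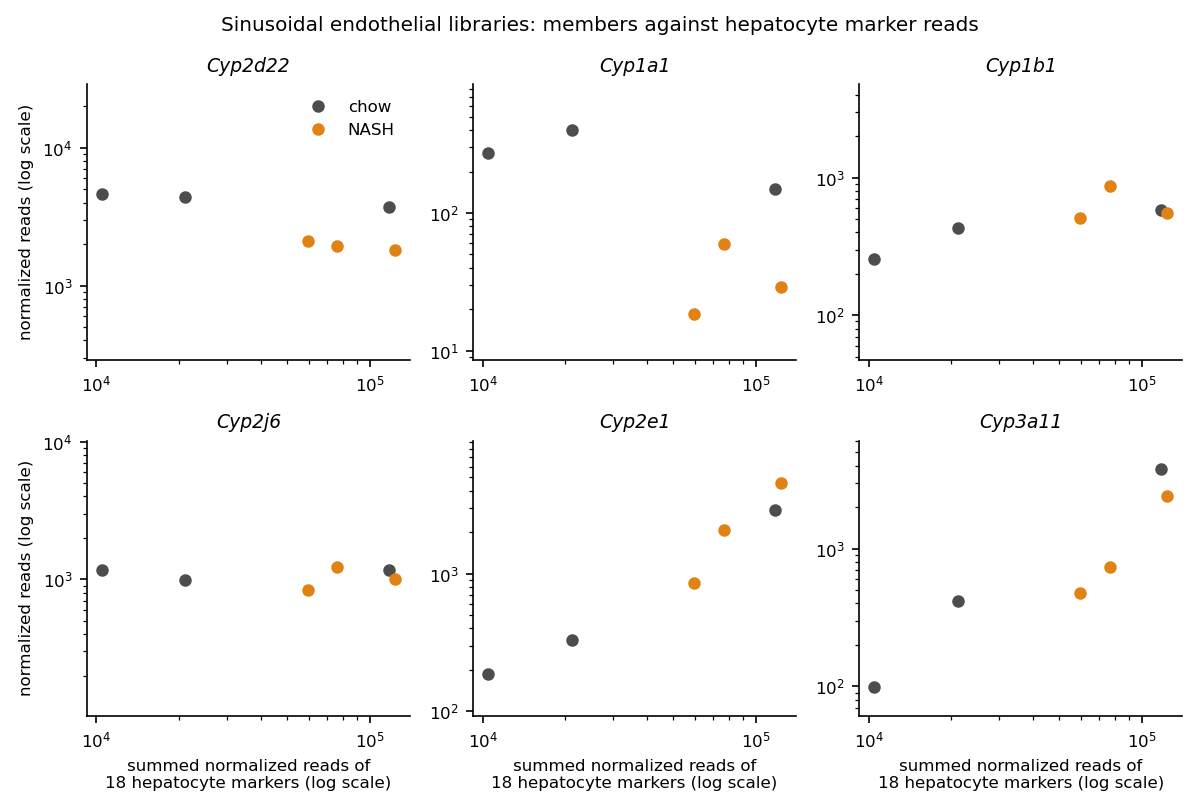
Normalized reads of 6 members in LSEC (y axes, log scale, each spanning 100-fold) against the summed normalized reads of 18 hepatocyte markers in the same library (x axes, log scale), with 1 point per library. Cyp2e1 and Cyp3a11 climb with the hepatocyte markers, whereas Cyp2d22 splits by diet and Cyp2j6 stays between 837 and 1239.

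To place members against hepatocyte RNA, reads were counted per 100000 hepatocyte marker reads in each library of both tissues. For 9 of the 38 shared members, all 6 LSEC libraries lay above all 6 liver libraries, a pattern that 88.2% of all genes showed. For another 9 all LSEC libraries lay below (0.538% of all genes), and 20 overlapped. The 9 above were Cyp1a1, Cyp1b1, Cyp2d22, Cyp2j6, Cyp2j9, Cyp2r1, Cyp2s1, Cyp2t4 and Cyp2u1. Cyp1b1 had 4.03 in liver (1.14 to 10.8) and 998 in LSEC (444 to 2467; median and range). Cyp2d22 had 166 (141 to 182) and 3365 (1459 to 43965). The 9 below included Cyp2e1, with 7173 (7003 to 7885) and 2135 (1443 to 3683), and Cyp2d9, with 1071 (628 to 1552) and 169.7 (117 to 401). Taken as a set chosen after these values were seen, the 9 above made up 24.4% to 92.2% of member reads in the LSEC libraries and 1.21% to 1.87% in liver.

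**Figure D5:**
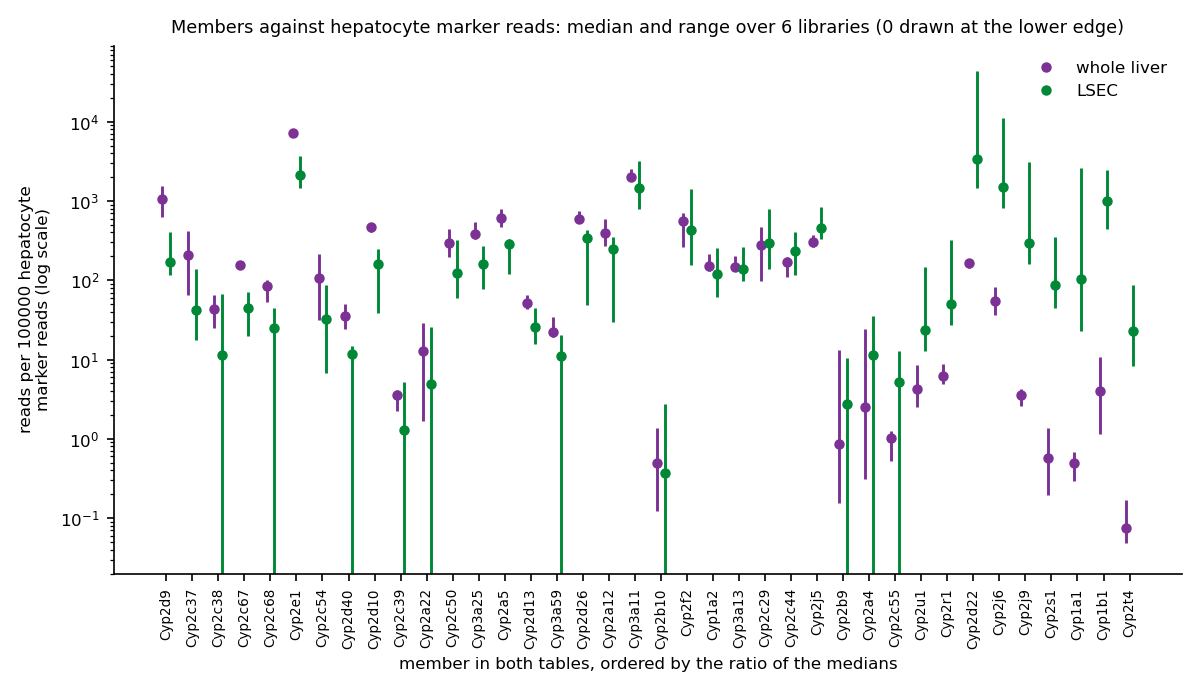
Reads per 100000 hepatocyte marker reads (y axis, log scale) for the 38 members in both tables (x axis, ordered by the LSEC to liver ratio), with the median as a point and the range over 6 libraries as a line (0 drawn at the lower edge). At the right, 9 members have every LSEC library above every liver library, among them Cyp2d22, Cyp1a1 and Cyp1b1.

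The effect of NASH was compared between the tissues for the 38 shared members, as the liver minus the LSEC log2 fold change. It differed for 6 (adjusted p under 0.05 over 15766 genes), 3 with the higher value in liver and 3 in LSEC, where 11.5% and 7.99% of all genes differed (19.5% in all). Cyp1a1 fell more in LSEC, with a difference of 1.98 ± 0.61 (SE, adjusted p = 0.038). Cyp2d22 also fell more in LSEC (0.54 ± 0.16, 0.0307), and Cyp1b1 had the larger value in liver (1.23 ± 0.38, 0.0414). These 3 also passed edgeR's interaction test (adjusted p = 0.0361 to 0.0418). Cyp2b10 (-2.83), Cyp2c38 (-3.71) and Cyp2c39 (-2.37) had the higher value in LSEC, with adjusted p = 0.045 to 0.0475. In LSEC, Cyp2b10 had at most 3.26 and Cyp2c39 at most 6.51 normalized reads in any library. Cyp2c38 had 0, 7.62 and 0 normalized reads in chow LSEC, against 9.66, 51.3 and 62.3 in NASH. Its 7 chow reads all came from the second chow library, and its change within LSEC was not called (limma, adjusted p = 0.0615). Of these 3, edgeR's interaction called Cyp2c38 (0.0268) but not Cyp2c39 (0.0507) or Cyp2b10 (0.39). None of the 6 calls survived every single library left out. The calls for a higher value in liver ranged from 0 (without liver NASH library 1, LSEC chow library 1 or LSEC NASH library 3) to 3, and those for a higher value in LSEC from 0 (without liver chow library 2, liver NASH library 3, LSEC chow library 1 or 3, or LSEC NASH library 2 or 3) to 24 (without the second LSEC chow library). At an unadjusted p under 0.05 these counts of 0 were 3 to 9. Shares over all genes are not given here for these left-out fits.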

How the data were processed

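RNA-seq of 12 libraries was used: whole liver and purified LSEC, chow and NASH, 3 libraries in each of 4 groups. The authors deposited 1 table per tissue holding gene-level signal values, here called normalized reads, which are gene counts divided by a size factor per library, as the values themselves show. In each library all values were whole multiples of the smallest positive one (100% within 0.01 of a read), which gave the reads behind them. The same deposited tables hold the authors' log2 fold changes and the authors' p-values with adjusted p-values, used here only for a count of calls. FastQC, STAR, HTSeq, DESeq2, Seurat and mm10 are named, per the submitters' processing notes, without roles or versions. The sources used here do not give the handling of reads shared by near-identical genes. The liver library kit (TruSeq), per the labels' protocols, is taken as not marking strand, so reads of overlapping antisense genes are not separated.

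Each tissue was fitted alone with limma 3.58.1 (R 4.3.3) on log2(normalized reads + 1), with no filter on low values, and p-values were Benjamini-Hochberg adjusted over all genes of the table, with calls at an adjusted p under 0.05. Fold changes on this scale understate the change of genes with few reads. The effect in liver minus that in LSEC was tested from the 2 limma fits with Satterthwaite degrees of freedom over 15766 shared genes. Alternatives were pseudocounts of 0.1 and 10, a filter at a mean of 10, scaling by total reads or by hepatocyte marker reads, edgeR 4.0.16, DESeq2 1.42.0, a replicate block, stricter thresholds and each library left out, with the hepatocyte marker level as a covariate in LSEC chosen after seeing the data. The scripts were tested on simulated reads with known changes. In LSEC, 22% of 2-fold and 75% of 4-fold changes were recovered, and 2.02% of calls were false. In liver these were 80%, 98% and 7.29%. For the difference between tissues, 54.1% of changed genes were recovered and 8.58% of calls were false. Gene positions and exon lengths came from GENCODE M21 and promoters from RefSeq.

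Members and lists were chosen with earlier results of these data known. Called members averaging 50 normalized reads or more were named; values per library were given for up to 3 members per subfamily by adjusted p in liver, for Cyp1a1, Cyp1a2, Cyp1b1, Cyp2e1 and Cyp3a11, and in LSEC for every called member and the 4 with the highest mean. Up to 4 genes were named per other list. One result of the heme list is not reported here, nor are that list's counts. Further members of lower level, those described as not called, and the values per library of Cyp2c29 were picked once their values were known. The authors' deposited tables called 8 members higher and 29 lower in liver (36 called in both analyses), and 3 higher and 3 lower in LSEC.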

Additional observations from a re-analysis of the deposited data

Results flagged for a closer look

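The effect of NASH differed between whole liver and LSEC for 6 of 38 members, by a test of the difference itself (limma estimates, Benjamini-Hochberg adjusted over 15766 genes). Over all genes 19.5% differed, 11.5% with the higher value in liver and 7.99% in LSEC. Cyp1a1 had a liver minus LSEC difference in log2 fold change of 1.98 (-0.99 in liver and -2.96 in LSEC), Cyp1b1 of 1.23 (1.87 and 0.64) and Cyp2d22 of 0.54 (-0.58 and -1.12). Cyp2b10 had a difference of -2.83 (-2.71 and 0.13), Cyp2c38 of -3.71 (0.29 in liver) and Cyp2c39 of -2.37 (-0.79 and 1.58). Cyp2c38 had only 7 reads in chow LSEC, and its change within LSEC was not called (limma, adjusted p = 0.0615). In LSEC, Cyp2b10 had 3 reads on chow and 3 in NASH, and Cyp2c39 had 1 and 11. The interaction test of edgeR called neither Cyp2b10 nor Cyp2c39 (adjusted p = 0.39 and 0.0507). The hepatocyte marker share of LSEC libraries ran from 0.0531% to 0.688%, and its part in these differences was not tested. With scaling by hepatocyte marker reads none of the 6 passed (adjusted p = 0.0636 to 0.247), and 7 members had an unadjusted p under 0.05, 5 higher in liver and 2 in LSEC.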

How the results depend on the processing

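In liver, the count of higher members (8) was 15 with scaling by hepatocyte marker reads and 7 to 10 with 1 library left out. The count of lower members (28) was 17 with scaling by total reads, 13 with scaling by hepatocyte marker reads, 14 with a log2 fold change of at least 1, and 23 to 26 with 1 library left out. Over all 16703 liver genes, 5863 to 7407 were called either way with 1 library left out. The median (-0.69) was -0.58 with a pseudocount of 10, -0.29 per total reads, 0.033 per hepatocyte marker read, and -0.82 to -0.60 with 1 library left out. Of 39 members below 0 in liver, 16 turned positive per hepatocyte marker read and 3 per total reads. Among the members followed through every setting these were Cyp2a5 (0.18), Cyp2c67 (0.0021), Cyp2d22 (0.20), Cyp2d26 (0.30), Cyp2e1 (0.033), Cyp2g1 (0.34), Cyp2j5 (0.25), Cyp2j9 (0.10), Cyp2r1 (0.088), Cyp2t4 (0.59), Cyp2u1 (0.20) and Cyp3a11 (0.011) per hepatocyte marker read. Cyp2t4 was also positive per total reads (0.27), with edgeR (0.0049), and without chow library 3 (0.08) or NASH library 2 (0.30), in a range of -0.34 to 0.30 with 1 library left out.

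In LSEC, the count of higher members (2) was 1 with a pseudocount of 10, with a mean of at least 10 reads, with edgeR and with the hepatocyte covariate, 0 per hepatocyte marker read (limma, 3 at an unadjusted p under 0.05, where edgeR called 1 and DESeq2 3 on their own scaling), 0 at an adjusted p under 0.01, and 0 to 10 with 1 library left out. The count of lower members (2) was 0 per hepatocyte marker read (3 at an unadjusted p under 0.05), 4 with the covariate, 1 at an adjusted p under 0.01 and 1 to 2 with 1 library left out. Over all 16273 LSEC genes, 124 to 1171 were called either way with 1 library left out and 484 with the covariate. The median (1.05) was 0.48 with edgeR and with DESeq2, 0.53 with a pseudocount of 10, -0.10 per hepatocyte marker read, -0.16 with the covariate and 0.18 to 2.07 with 1 library left out. Cyp1a2 turned to -0.75 per hepatocyte marker read, -0.29 with edgeR and with DESeq2, -1.33 with the covariate, and -0.33 (without chow library 3) to 1.98 with 1 library left out. Cyp3a11 turned likewise to -0.66, -0.23, -0.24 and -1.45, and to -0.40 to 2.22 with 1 library left out. Cyp1b1 was -0.84 per hepatocyte marker read, Cyp2e1 -0.0045 with the covariate, and Cyp2j6 0.016 per total reads and -0.27 to 0.017 (without NASH library 1) with 1 library left out.

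Differences higher in liver (3) numbered 6 with a pseudocount of 10, 0 per hepatocyte marker read and 0 to 3 with 1 library left out, and those higher in LSEC (3) numbered 1 per total reads, 0 per hepatocyte marker read and 0 to 24. The cause of these changes was not tested. The replicate block in liver gave 8 higher and 29 lower members. Same-numbered libraries showed little shared deviation (correlations of -0.01, -0.02 and 0.10), and only for number 3 was the best match the same number. These 3 correlations cannot exclude a shared batch, so whether the numbers mark a pairing is not known. No paired analysis was possible in LSEC because its columns carry no replicate number. Over the 40 members followed in liver, the 9 in LSEC and the 6 differences between tissues, 634 values kept direction and call, 111 lost the call, 5 gained it and 30 changed sign. In LSEC, 8 of 39 members averaged under 10 normalized reads, where depth limits the values.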
